A study of Mus musculus with 2 samples.

Results

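Cytosolic ribosomal proteins were compared between thioglycollate-elicited and resident macrophages of the mouse peritoneal cavity. The members were the probe sets that the platform annotation assigned to exactly 1 gene whose current symbol is Rpl or Rps followed by a digit, or Rplp0, Rplp1, Rplp2 or Rpsa, without the Rps6k kinases and without pseudogene names. This rule found 106 of the 45101 probe sets of the array, and they named 50 of 18193 named genes. Of these 50 genes, 22 encode proteins of the large ribosomal subunit and 21 proteins of the small subunit. A further 6 are paralogs with a name of the "like" type (Rpl3l, Rpl7l1, Rpl22l1, Rpl39l, Rps4l and Rps27l). The last one, Rps19bp1, is caught by its spelling and encodes a binding partner of the small-subunit protein S19, not a subunit. The rule used no measured value.

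The elicited sample came from 8-week-old C57BL/6J mice 3 days after an injection of 1 mL of 3% thioglycollate, a sterile irritant broth, into the peritoneal cavity, and the resident sample from untreated mice of that strain and age. In both, per the labels' protocols, cells were left to adhere for 2 h and rinsed with PBS, and 100 ng of total RNA went into labelled cRNA. The series description speaks of overnight culture instead, so the time in culture is uncertain, and the sources used here do not say how many mice stand behind an array. With 1 array per group there was no replicate, so no value below has a replicate error, no difference was tested, and 2-fold serves only as a descriptive threshold.

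A ribosome carries out protein synthesis: its small subunit reads the messenger RNA and its large subunit joins the amino acids. Each subunit protein is needed once per ribosome, apart from the acidic stalk proteins, and the genes are spread over many chromosomes but are expressed together. Most of their messengers start with a C followed by a run of pyrimidines, the 5′ terminal oligopyrimidine (TOP) tract, through which the kinase mTORC1 and the RNA-binding protein Larp1 set their translation. Macrophages that leave the resting state are known to alter their protein synthesis, and translation of these messengers can change without any change in their amount, which is the quantity an array reads.

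The start sites show how far that shared design can be read from the annotation. Promoters from RefSeq (GRCm38.p6, 250 bases before to 50 bases after the annotated start) were found for 44 of the 50 genes, all but Rpl7, Rpl8, Rps4l, Rps14, Rps20 and Rps29. The 43 subunit genes were spread over 15 chromosomes, with the largest group, 7 genes, on chromosome 7. Among the 38 subunit genes with a promoter, 13 (34.2%) had a run of at least 5 pyrimidines that opened with a C at bases -1 to 3 around the annotated start, against 9.42% of all 27025 genes in the promoter table. The windows below run from 15 bases before the annotated start to the first 15 bases of the transcript, and capitals mark that run. They are shown because they cover both ends of the deposited ratios, described later, of the subunit genes with such a run. These ends are Rpl35 in the large subunit and Rps6 in the small one.
Rpl35, chr2:39005117-39005146, minus strand: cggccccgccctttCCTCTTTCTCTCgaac
Rpl38, chr11:114668565-114668594, plus strand: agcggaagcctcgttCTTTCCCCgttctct
Rpl27a, chr7:109519180-109519209, plus strand: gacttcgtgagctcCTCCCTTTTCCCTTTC
Rpl13a, chr7:45128731-45128760, minus strand: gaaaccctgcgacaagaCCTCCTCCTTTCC
Rplp2, chr7:141447636-141447665, plus strand: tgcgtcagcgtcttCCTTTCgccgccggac
Rps10, chr17:27635230-27635259, minus strand: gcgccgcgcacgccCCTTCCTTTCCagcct
Rps18, chr17:33955651-33955680, minus strand: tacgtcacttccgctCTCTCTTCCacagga
Rps6, chr4:86857353-86857382, minus strand: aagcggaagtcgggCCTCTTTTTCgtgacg

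Other members had no such run at the annotated base, and the next windows show 4 of them. In Rps9 a pyrimidine stretch lies across the annotated start, but from the C at base -1 the run is shorter than 5, so the rule did not count it. No match says only that these letters are not at this place.
Rps9, chr7:3704026-3704055, plus strand: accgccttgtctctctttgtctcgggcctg
Rplp0, chr5:115559452-115559481, plus strand: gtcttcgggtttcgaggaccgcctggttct
Rps25, chr9:44407699-44407728, plus strand: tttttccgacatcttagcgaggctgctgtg
Rpl22l1, chr3:28805493-28805522, plus strand: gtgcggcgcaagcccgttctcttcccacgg

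The letters CCGGAAG, the core bound by factors of the Ets family such as Gabpa, occurred on either strand in 19 of the 38 subunit promoters (50%), against 9.93% of all promoters. The letters AAGATGG, part of the site of the factor Yy1, occurred in 18.4% against 7.28%. The TATA letters TATAAA occurred in 13.2% against 15.7%. Both strands were searched for each, and CCGGAAG and AAGATGG can share the letters AAG. These matches are a description of the letters and not evidence of binding. In the windows below capitals mark CCGGAAG or its reverse complement CTTCCGG, and all lie before the annotated start.
Rpl19, chr11:98026659-98026688, plus strand: gacttagcgtgaCTTCCGGctacccagagg
Rpl41, chr10:128549207-128549236, minus strand: ctagtaaggcagCCGGAAGtcgctgtctcg
Rps18, chr17:33955723-33955752, minus strand: gagaagcaatttCCGGAAGtggacctccgg
Rps25, chr9:44407629-44407658, plus strand: ccacccattgccCCGGAAGtactctctcga
Rps6, chr4:86857441-86857470, minus strand: gttaatctacgcCCGGAAGtaacgcccctc
Rpl39l, chr16:10170124-10170153, plus strand: aatttgccgtacCCGGAAGcgctggaagct

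Signals were linear intensities made by the authors with MAS5, and ratios are elicited over resident on the log2 scale. Background was taken as a signal of 82.2, the 95th percentile of 126 probe sets of olfactory, vomeronasal and taste receptors and hair keratin partners, and lower signals were raised to it. Of the 106 member probe sets, 93 were above this floor on both arrays, 1 on 1 array and 12 on neither. Where a gene had several probe sets, the one of highest mean log2 signal stood for it. In this way 48 of the 50 genes were above the floor on both arrays, none passed through 1 array alone, and 2 were not measured. One was Rpl3l, a paralog known from striated muscle, with signals of 14.6 on the elicited and 6.23 on the resident array. The other was Rps16, whose single probe set read 56.4 on the elicited and 1.36 on the resident array. Of 89 protein-coding symbols in the RefSeq table that follow the same spelling, 40 had no probe set of their own here, and 31 of these were listed by probe sets that name further genes.

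The signals of most members lay near the top of both arrays and differed little between them. Over the 48 genes the median signal was 26216 on the elicited and 23524 on the resident array, where the highest signals of any probe set were 58028 and 48947. The median log2 ratio was 0.22 (1.17-fold), with an interquartile range of 0.12 to 0.34. By comparison, the median of all 11499 named genes above the floor on at least 1 array was -0.03. The ratio was above 1 in 43 of 48 members, while 48.1% of all named genes and 834 of 1114 other genes in the brightest 10% had a ratio above 1. The direction of the members' median depended on the scaling: it was 0.53 with equal medians of both arrays, but -0.060 with quantile scaling, -0.22 with a loess trend taken out and -0.15 on the spiked hybridisation controls. In a bulk sample, fewer cells of a type and less RNA per cell cannot be told apart.

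**Figure D1:**
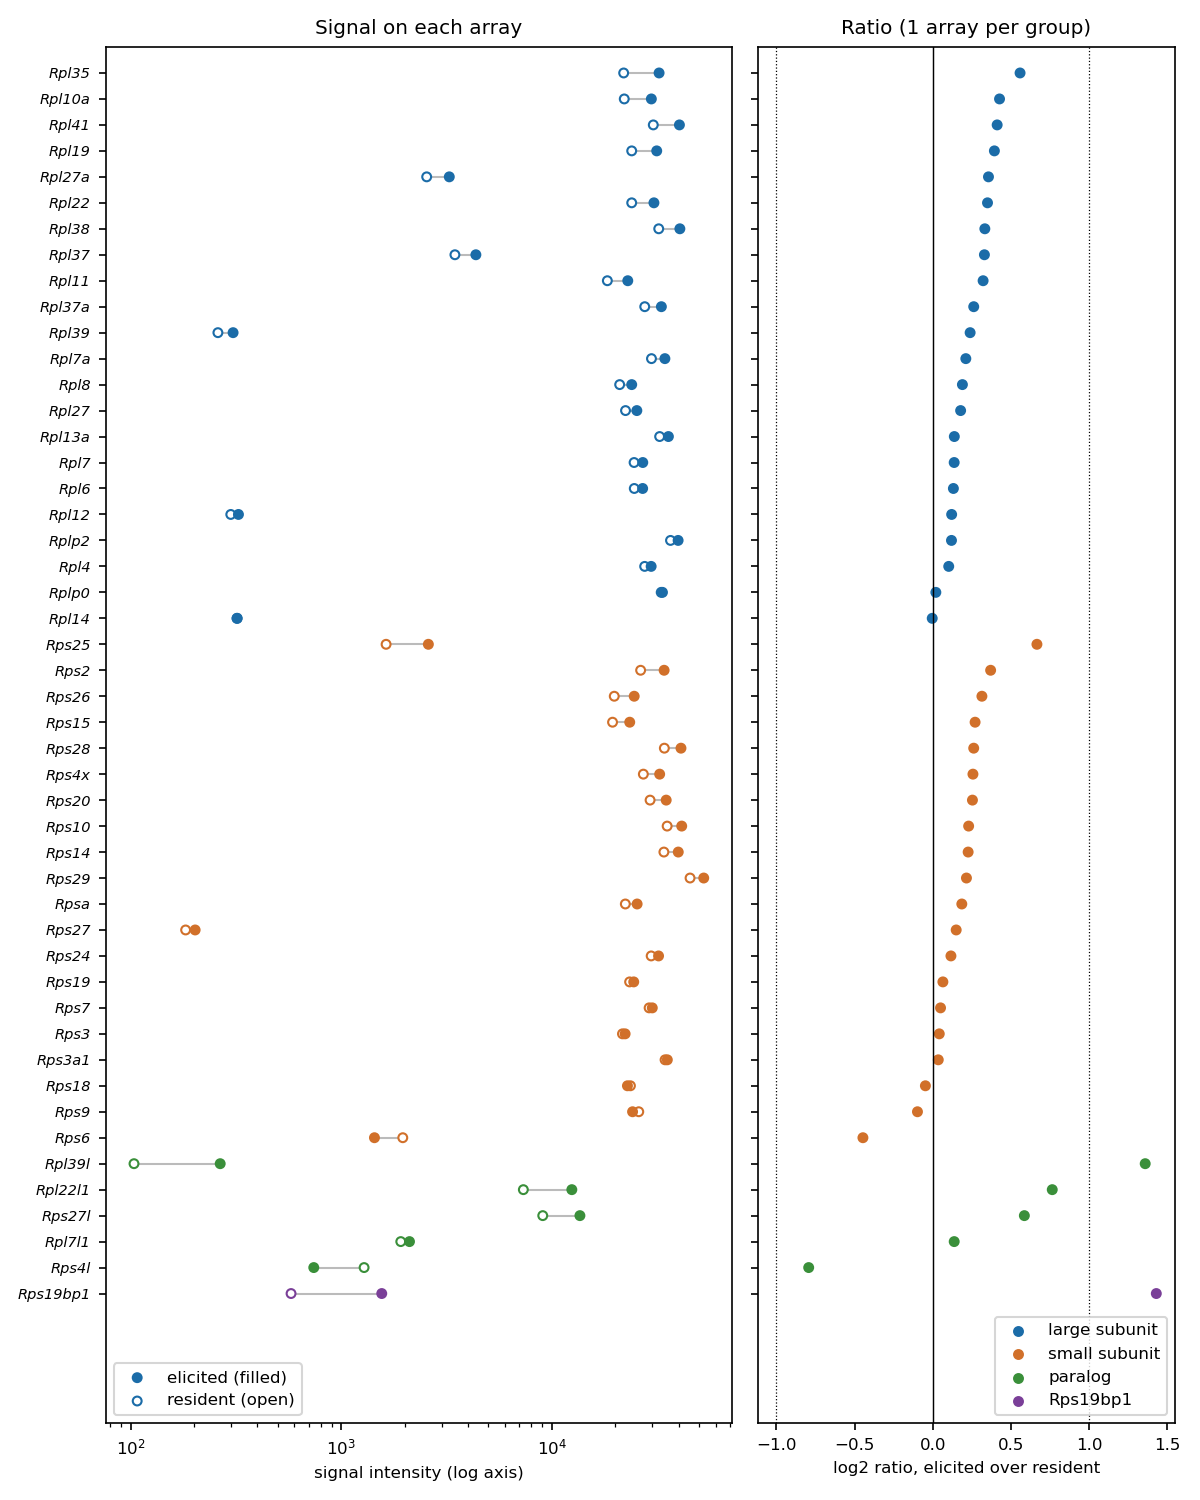
Each row is 1 of the 48 measured genes, with its signal on the elicited (filled) and resident (open) array on a log axis at left and its log2 ratio, elicited over resident, at right; dotted lines mark 2-fold. Ratios of the 42 large- and small-subunit genes run from -0.45 (Rps6) to 0.67 (Rps25) on the deposited scale, and the points outside 2-fold are Rpl39l and Rps19bp1.

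How the members stood against other probe sets of like signal depended on the signal. In the deposited values the ratio climbs with signal from decile 4 upward: the median of all named genes was -0.23 in decile 4 by mean signal and 0.40 in decile 10, which held 36 of the 48 members. Probe sets with a mean signal of 16384 or more numbered 58 for members, with a median log2 ratio of 0.20 and an interquartile range of 0.12 to 0.31. The 172 other named probe sets of that brightness had a median of 0.47 and an interquartile range of 0.18 to 0.71. The spread differed too: none of the 58 member probe sets was 2-fold apart in either direction, against 22 higher and 3 lower among the other 172. In the bands from 2048 to 16384, the order was the other way. From 8192 to 16384 the median was 0.57 over 10 member probe sets and 0.49 over 435 others. Those 10 include the 3 of the paralog Rps27l (0.57 to 0.59) and the 1 of the paralog Rpl22l1 (0.76). The rest, most of them below 0.49, were of Rps9 (0.20), Rpl22 (0.24), Rps10 (0.39), Rpl27 (0.41 and 0.57) and Rpl41 (0.67). The order for subunit genes alone was not worked out in this band. From 2048 to 8192 the median was 0.33 over 5 member probe sets and 0.23 over 2536 others. In the band just below 2048 the members were again lower, with -0.36 over 7 against -0.13 over 5987. These 7 mix subunit genes (Rps6, Rps3 and Rpl22) with paralogs (Rpl7l1 and Rps4l) and the binding protein gene Rps19bp1 (1.43). In the dimmest band, which starts at the floor, the members were higher, with -0.003 over 13 against -0.28 over 7949.

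The gap to the other genes of the brightest 10% kept its sign under each processing choice that could change it. The members' median minus that of the 1114 others there was -0.20 as deposited. The others were dimmer, with median signals of 8025 on the elicited and 6327 on the resident array, against 26216 and 23524 for the members. The members' median also covers all 48, of which 36 lie in that decile. The gap was -0.17 with quantile scaling and -0.30 with loess. As the median of all probe sets of a gene it was -0.07, and without probe sets of suffix x or s it was -0.20. Equal medians and control scaling multiply 1 array by a single factor, so they could not change this gap. The floor and filter settings hardly touched it. The spiked controls give a scale that does not depend on the cells. The 9 hybridisation control probe sets had a mean log2 ratio of 0.37 and ranged from 0.19 to 0.72. The 4 of them as bright as the members, at 16384 or more, ranged from 0.23 to 0.38. Another 12 control probe sets, for spiked poly-A RNA, had a mean of 0.39 and ranged from 0.002 to 0.75. The array's 3 probe sets for 18S ribosomal RNA, the RNA of the small subunit, had log2 ratios from 0.23 to 0.39. On the scale of the hybridisation controls, which lowers the ratios of all genes, 9 of 48 members had a ratio above 1. The members' median there was -0.15, that of the other genes of the brightest 10% 0.046 and that of all named genes -0.37.

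**Figure D2:**
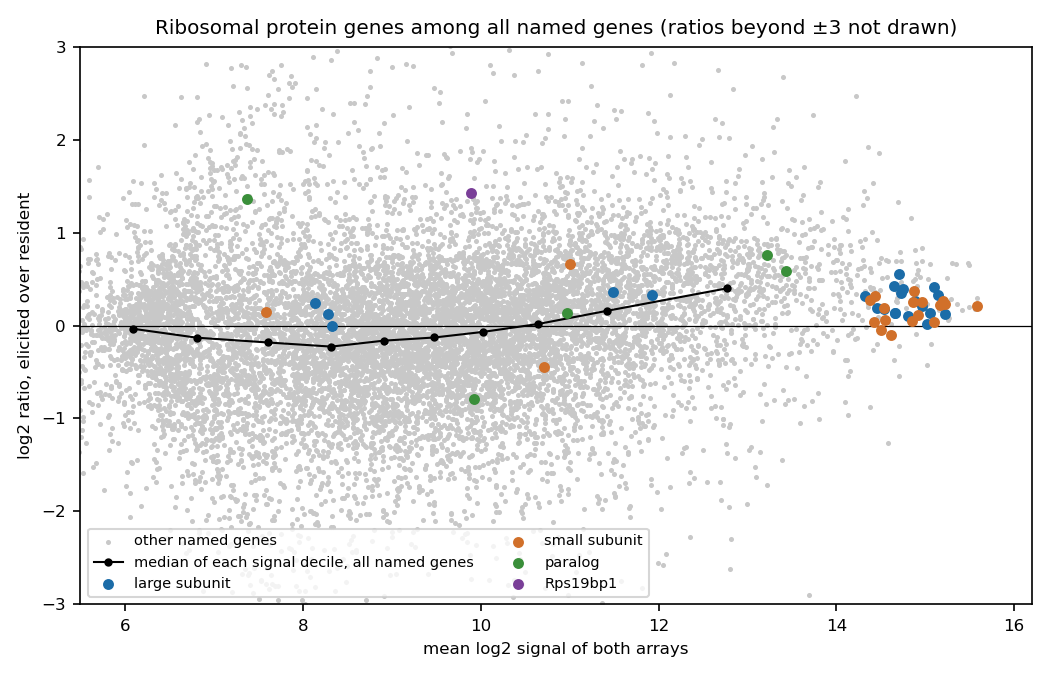
Log2 ratio, elicited over resident, against the mean log2 signal for each named gene (grey), the 48 ribosomal protein genes (coloured by kind) and the median of each signal decile (black line). Most members form a tight group at the right edge, whose median of 0.22 on the deposited scale lies under the 0.40 of the brightest decile; that group moves below 0 with quantile, loess or control scaling.

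**Figure D3:**
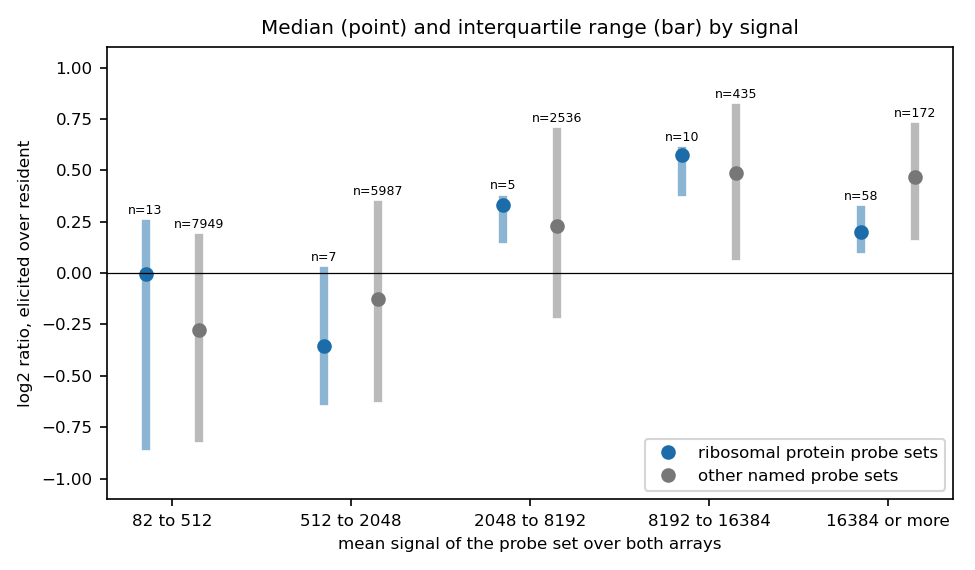
Median (point) and interquartile range (bar) of the log2 ratio for ribosomal protein probe sets (left of each pair) and other named probe sets (right), by mean signal. At 16384 or more, 58 member probe sets had a median of 0.20 and 172 others 0.47, while from 8192 to 16384 the medians were 0.57 (10 member probe sets) and 0.49 (435 others). Those 10 include the 3 of the paralog Rps27l and the 1 of the paralog Rpl22l1.

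Large-subunit genes had a median log2 ratio of 0.23 over 22 genes and small-subunit genes 0.20 over 20. Both medians turned negative with quantile, loess and control scaling (-0.011, -0.13 and -0.15 for the large subunit, -0.091, -0.26 and -0.17 for the small one). Neither subunit had a gene 2-fold apart. Over all 48 members 2 were 2-fold higher and none lower, while among all named genes 8.04% were higher by that much, 11.8% lower and 19.8% either. The spread between genes was an SD of 0.14 in the large and 0.22 in the small subunit, on the log2 scale. For comparison, the pooled SD between probe sets of the same gene was 0.35 over the 20 member genes with several, more than between genes, and 0.11 over 18 genes when only probe sets with a mean signal of 8192 or more were taken. None of these SDs holds any spread between mice or cultures.

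The genes of the ribosome's stalk, which recruits the elongation factors, had small ratios as deposited. Rplp0, the stalk base and a common reference gene in PCR assays, had signals of 33540 on the elicited and 33081.6 on the resident array, a log2 ratio of 0.02. Its partner Rplp2 read 39802 on the elicited and 36629 on the resident array, a log2 ratio of 0.12. Rpsa, a small-subunit protein also known as the laminin receptor, read 25423 on the elicited and 22349 on the resident array (0.19). Against the median of all subunit genes, Rplp0 lay at -0.19, and between -0.22 and -0.15 over all 10 settings. Equal medians and control scaling could not change this difference, and the floor and filter settings hardly touched it. Only quantile, loess and the probe set choices could move it much. The same holds for the ranges over settings given below for Rps25, Rps6, Rpl22l1, Rps27l and Rps19bp1. The log2 ratio of Rplp0 itself was -0.29 with quantile, -0.46 with loess and -0.35 with control scaling. Rplp1 had no probe set of its own.

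The proteins around the tunnel through which the new peptide leaves the ribosome spanned most of the large subunit's range as deposited. Rpl35, at the tunnel exit, had the highest ratio of that subunit in the deposited values, with signals of 32325 on the elicited and 21945 on the resident array (log2 ratio 0.56). Its 5 probe sets above the floor ranged from 0.31 to 0.58, all in the same direction on the deposited scale. Rpl19, also at the exit, read 31499 on the elicited and 23963 on the resident array (0.39). By contrast, Rpl4, which lines the tunnel wall, read 29638 on the elicited and 27610 on the resident array (0.10). Rpl39, a very short protein inside the tunnel, was read by a dim probe set with signals of 307 on the elicited and 259.7 on the resident array (0.24). Rpl39 passed Rpl35 with quantile scaling (0.69 against 0.24) and with loess (0.64 against 0.097). The other members of this list had no probe set of their own.

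Other large-subunit genes at the upper end as deposited were Rpl10a, which encodes the protein of the L1 stalk (29703 on the elicited and 22087 on the resident array, 0.43), and Rpl41, which encodes the smallest ribosomal protein (40374 and 30339.9, 0.41). Rpl41 depended on the probe set: another bright one read 0.67 and 2 dim ones -0.48 and -0.21, so that the gene stood at 0.10 as the median of all and turned to -0.21 without x and s probe sets. Rpl38, known in the mouse for its part in the translation of Hox messengers, read 40574 on the elicited and 32203 on the resident array (0.33). Rpl11, which with Rpl5 and the 5S RNA can hold back the p53 regulator Mdm2, read 22955 on the elicited and 18360 on the resident array (0.32). At the lower end as deposited was Rpl14, at 319.9 on the elicited and 320.6 on the resident array (0.00), from a dim probe set. Its place depended on the scaling, with 0.42 after quantile and 0.37 after loess. Rpl13a, which can leave the ribosome in myeloid cells to silence inflammatory messengers, had 4 probe sets with log2 ratios from 0.14 to 0.20.

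In the small subunit, the genes of the messenger's entry side did not share a value. Rps2 read 34154 on the elicited and 26420 on the resident array (log2 ratio 0.37), while its neighbours Rps3 (22298 and 21661) and Rps9 (24187 and 25884) had ratios of 0.04 and -0.10. A second bright probe set of Rps9 read 13654 on the elicited and 11858 on the resident array (0.20). Rps15, near the decoding site, read 23448 on the elicited and 19433 on the resident array (0.27). At the exit side of the messenger the deposited values were closer together. Rps26 read 24624 on the elicited and 19800 on the resident array (0.31), Rps28 read 41065 and 34242 (0.26) and Rps14 read 39864 and 34073 (0.23). Rps29, a protein of the small-subunit head, read 52666 on the elicited and 45353 on the resident array, with 0.20 to 0.22 over its 3 probe sets.

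The lowest deposited ratio among subunit genes belonged to Rps6, the substrate of the S6 kinases downstream of mTORC1, with signals of 1438 on the elicited and 1961 on the resident array (-0.45). This rests on 1 probe set above the floor, and its other one, at 73.5 on the elicited and 41.5 on the resident array, was below it. Rps9 lay below Rps6 with loess (-0.55 against -0.45), with quantile scaling (-0.44 against -0.40) and without x and s probe sets (-1.02 against -0.45). Rps18, another common reference gene, read 22870 on the elicited and 23628 on the resident array (-0.05), and its 3 bright probe sets ranged from -0.05 to 0.33. The highest deposited ratio belonged to Rps25, a head protein that some viral and cellular messengers need for cap-independent initiation, with 2593 on the elicited and 1634 on the resident array (0.67). Rps25 rests on 1 probe set as well, and its signals lie far below the members' median. Of the remaining low ratios, Rps3a1 (35368 on the elicited and 34513 on the resident array, 0.04), Rps7 (30006 and 28987, 0.05) and Rps19 (24498 and 23421, 0.06) were all within 0.1 of 0 as deposited. Rps19 is best known as a gene mutated in human Diamond-Blackfan anaemia. Relative to the median of the subunit genes, Rps25 lay 0.45 higher (0.45 to 0.85 over the 10 settings) and Rps6 at -0.66 (-0.66 to -0.21).

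The paralogs were uneven. Of 5 measured paralogs, 1 was at least 2-fold higher, none at least 2-fold lower, and the median log2 ratio was 0.59. This median stayed positive in all settings, from 0.19 (quantile) to 0.89 (equal medians). Rpl22l1, whose level the parent protein Rpl22 is known to restrain in mouse cells, had signals of 12451 on the elicited and 7328 on the resident array (0.76). Rpl22 itself read 30554 on the elicited and 23965 on the resident array (0.35). The paralog's log2 ratio exceeded that of the parent by 0.41, and by 0.35 to 0.53 over the 10 settings.

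Rps27l, a paralog of Rps27 that p53 can induce, read 13601 on the elicited and 9060 on the resident array, and its 3 probe sets agreed within 0.57 to 0.59. It lay 0.37 above the median of the subunit genes, and 0.28 to 0.46 above it over all settings. Its parent Rps27 was read by a dim probe set alone, with 202.4 on the elicited and 182 on the resident array (0.15). Rpl39l, a paralog known from the testis in mice, had signals of 266 on the elicited and 104 on the resident array (1.36, 2.57-fold). The resident signal is near the floor of 82.2, and the log2 ratio was 0.61 with a floor at the 99th percentile (174) and 0.99 on the hybridisation controls.

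Rps4l, named for its likeness to the S4 protein, was the one paralog with a ratio below 1, at 741 on the elicited and 1284 on the resident array (-0.79), against 32529 and 27217 for Rps4x (0.26). Rpl7l1, a protein of large-subunit assembly, read 2110 on the elicited and 1918 on the resident array (0.14), against the value of Rpl7 (27044 and 24593, 0.14). The 3 probe sets of Rpl7l1 spread from -0.12 to 0.42. Rps19bp1, also known as an activator of the deacetylase Sirt1, had 1558 on the elicited and 577.9 on the resident array (1.43, 2.70-fold). It was the highest deposited ratio of the 48 measured genes, with Rpl39l above it after quantile (1.80 against 1.62) and loess (1.73 against 1.57). It lay between 1.22 and 1.81 above the median of the subunit genes over the 10 settings. Rpl22l1, Rpl39l, Rps4l and Rps19bp1 rest on 1 probe set each.

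In several genes a dim probe set read far from the bright ones. Rpl22 had log2 ratios of 0.35 and 0.24 in its 2 bright probe sets, and -1.03 in a dim one with signals of 871 on the elicited and 1774 on the resident array. In Rps24 the 4 bright probe sets ranged from -0.13 to 0.12, and a dim one, at 339 on the elicited and 731 on the resident array, had -1.11. Rps9 had a dim probe set at 328 on the elicited and 664 on the resident array (-1.02), and Rps20 a pair at 82.9 and 85.7 on the elicited against 156 and 153 on the resident array (-0.91 and -0.84). In Rpl37a the dim probe set went the other way (0.53, against 0.18 and 0.26 in the bright ones), and in Rpl13a the dimmest, at 3736 on the elicited and 3393 on the resident array, read the same as the brightest (0.14 each). Bright probe sets differed too, from 0.18 to 0.57 in Rpl27, from -0.05 to 0.33 in Rps18 and from -0.10 to 0.20 in Rps9.

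This pattern was not particular to ribosomal protein genes. Among the 9 members whose dimmest probe set was over 4-fold dimmer than the brightest, the dim one had the lower ratio in 6 (66.7%). Among 1666 other genes of the same kind it did so in 71.8%. No member's probe sets spanned more than 1.5 on the log2 scale. What part of each transcript a probe set reads was not examined here.

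**Figure D4:**
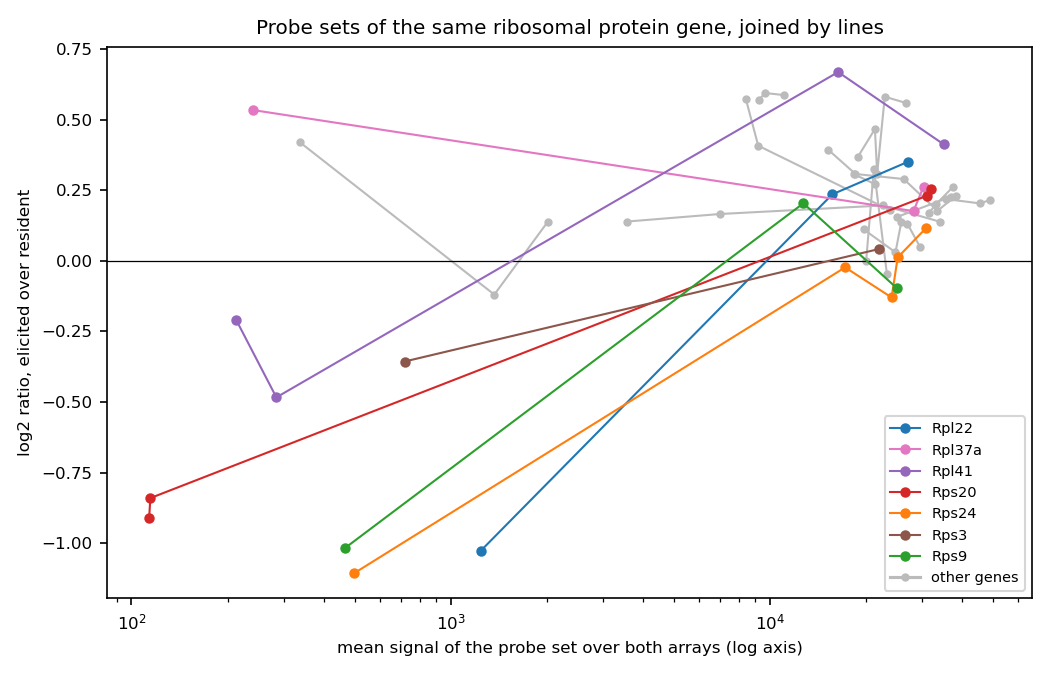
Log2 ratio, elicited over resident, against mean signal (log axis) for the probe sets above the floor of the 20 genes with at least 2, with probe sets of 1 gene joined. Bright probe sets crowd between -0.13 and 0.67 on the deposited scale, while the dim probe sets of Rpl22, Rps24 and Rps9 lie near -1.

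Many member probe sets can also read related sequences. Of the 106, 40 carried the suffix x, which the maker gives to sets that may bind unrelated transcripts, and 3 the suffix s, for sets shared by transcripts of more than 1 gene. Above the floor, the x sets had a median log2 ratio of 0.22 over 38, those with the suffix a (variants of 1 gene) 0.20 over 28, those without a letter 0.14 over 24, and the s sets -0.10 over 3. Another 110 probe sets listed a ribosomal protein gene together with other genes and are no members. The 100 of these above the floor on both arrays had a median log2 ratio of 0.20 (interquartile range 0.07 to 0.28), next to 0.20 over the 93 member probe sets.

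The promoter letters shown above were set beside the ratios as a description. Measured subunit genes with CCGGAAG had a median log2 ratio of 0.31 (19 genes, from -0.45 to 0.67), and those without it 0.14 (18 genes, from -0.10 to 0.43). Genes with the pyrimidine run at the annotated start had a median of 0.14 (13 genes, from -0.45 to 0.56) and those without it 0.26 (24 genes, from -0.10 to 0.67). For AAGATGG the medians were 0.18 with it (6 genes) and 0.23 without it (31 genes). For TATAAA they were 0.26 with it (5 genes) and 0.18 without it (32 genes). The ranges of genes with and without each of these features overlapped, and all these values are on the deposited scale.

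Around the ribosome, other parts of the translation machinery had a median near 0 as deposited. Over 110 measured genes of the lists outside the naming rule, 5 were 2-fold higher or more and none was lower by that much, below the shares of all named genes given above. Their median log2 ratio was 0.01, and it turned to -0.028 with loess, -0.012 without x and s probe sets and -0.37 on the hybridisation controls. Their median signals were 1516 on the elicited and 1597 on the resident array, far below those of the members. These signals lie in decile 8, where all named genes had a median of 0.016 as deposited. The lists described next also differ in signal, with which the deposited ratio varies. Fau, which encodes a small-subunit protein joined to a ubiquitin-like domain and falls outside the spelling rule, read 33450 on the elicited and 26820 on the resident array (0.32). Mitochondrial ribosomal proteins, made from separate genes, had a median of 0.48 over 76 genes, with 6 at least 2-fold higher and none lower.

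Among 9 measured elongation and termination factors (median 0.13) 1 was 2-fold higher. That one was Eef1e1, which belongs to the complex of aminoacyl-tRNA synthetases (2336 on the elicited and 937 on the resident array, 1.32). The elongation factor Eef1a1, itself a TOP messenger, read 49467 on the elicited and 42929 on the resident array (0.20), and Eef2, which moves the ribosome along, 12255 and 14819 (-0.27). Eif5a, which helps the ribosome through stalling sequences, read 29812 on the elicited and 23067 on the resident array (0.37).

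All 25 measured initiation factors were within 2-fold (median 0.21). The extremes were Eif4ebp1, an inhibitor of cap binding that mTORC1 switches off (5676 on the elicited and 2991 on the resident array, 0.92), and Eif4a2, a helicase (6968 and 11630, -0.74). Of 15 other transcripts with a TOP tract, 2 passed 2-fold, both higher (median 0.20). These were the filament gene Vim (43349 on the elicited and 11950 on the resident array, 1.86) and Hint1 (23351 and 10678, 1.13). At the other end, Hnrnpa1 read 1981 on the elicited and 3413 on the resident array (-0.78). Tpt1, a very abundant TOP messenger, read 45334 on the elicited and 38587 on the resident array (0.23).

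Of 39 measured factors that build ribosomes, 2 passed 2-fold, both higher (median 0.06). Nhp2, of the particles that modify ribosomal RNA, read 6263 on the elicited and 2414 on the resident array (1.38). Rrp9, of the U3 particle, had a signal of 307 on the elicited array and one below the floor on the resident array, at least 3.73-fold higher. Genes that control ribosomal protein synthesis had a median of -0.31 over 17, with 4 ratios above 1 and none 2-fold apart. The median signals of this list were 1137 on the elicited and 1155 on the resident array. They lie in decile 7, where all named genes had a median of -0.07. Rheb, the activator of mTORC1, read 8854 on the elicited and 4797 on the resident array (0.88), and Gabpa, whose family binds the CCGGAAG letters, 1137 and 2063 (-0.86). The 10 measured genes of ribosome rescue had a median of -0.35, led by Gcn1 (179 on the elicited and 297 on the resident array, -0.73), and none was 2-fold apart. The median signals of these genes were 557 on the elicited and 691 on the resident array. All named genes had medians of -0.16 in decile 5 and -0.13 in decile 6, which hold these signals. The members' own role lists gave medians of 0.12 (stalk and Rpsa, 3 genes), 0.32 (5S particle, 1 gene, and functions off the ribosome, 9 genes), 0.32 (tunnel, 4 genes), 0.16 (decoding and entry, 4 genes) and 0.24 (messenger exit, 4 genes).

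Markers of macrophages and of other cells were read on the same arrays. All 8 macrophage markers, such as Csf1r and Cd68, were above the floor on both arrays, with summed signals of 137236 on the elicited and 141135 on the resident array. The median log2 ratio of these was -0.51, and Itgam (-1.58) and Cd14 (-1.45) were lower by over 2-fold while Fcgr1 (1.35) was higher. B cell markers summed to 4954 on the elicited and 24652 on the resident array, with 7 and 9 of 9 above the floor and a median log2 ratio of -3.54. Cd22, at 4078 on the elicited and 2269 on the resident array, made up most of the elicited sum, and 7 of the 9 were lower by over 2-fold. Markers of mesothelium and fibroblasts summed to 12469 on the elicited and 674 on the resident array, with 10 and 3 of 11 above it and a median of 2.14. Dividing-cell genes summed to 25991 on the elicited and 10197 on the resident array, with all 5 above the floor on both. Pcna (23888 on the elicited and 8466 on the resident array) made up most of both sums, and Mki67 went the other way (322 and 1040, -1.69). Mast cell (110 and 2404), dendritic cell (277 and 1368) and T cell (566 and 806) markers were dim, and none of the mast or dendritic cell markers was above the floor on the elicited array. Of 4 measured T cell markers, 2 were lower by over 2-fold and 1 was higher. The higher one, Cd28 (321 on the elicited and 112 on the resident array, 1.52), made up most of the elicited T cell sum. The part of these cells in the ratios of ribosomal protein genes was not tested.

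**Figure D5:**
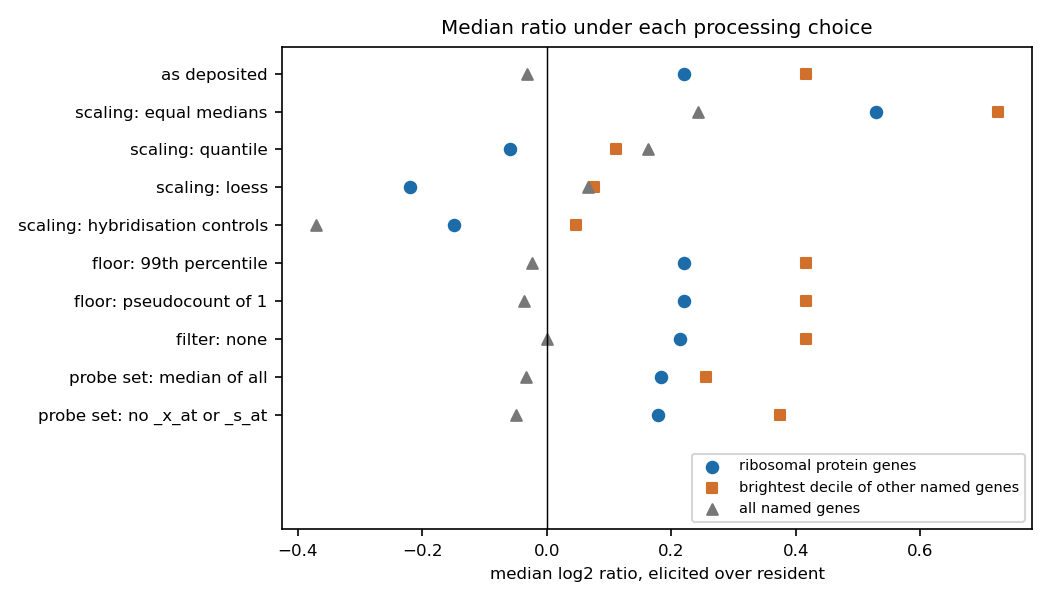
Median log2 ratio, elicited over resident, of the 48 ribosomal protein genes (circles), other genes of the brightest decile (squares) and all named genes (triangles) under each processing choice. The members' median is 0.22 as deposited and falls below 0 with quantile, loess and control scaling, and the circles lie left of the squares in all 10 rows. Equal medians and control scaling shift circles and squares alike, so they could not change that order.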

How the data were processed

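RNA of 1 elicited and 1 resident macrophage sample was measured on 1 Affymetrix array each. The authors deposited 1 linear intensity per probe set. MAS5 is named in the submitters' processing notes, while the sources used here do not state its version or target. A mean trimmed by 2% at each end was 500.0 on both arrays. Genes came from the platform annotation, with symbols brought up to date through RefSeq for GRCm38.p6 (34754 of 34958 probe sets with 1 symbol matched); 932 probe sets with several genes and 9211 with none were left out. Signals were floored, and each gene was represented by its brightest probe set. Alternatives changed scaling (equal medians, quantile, loess with a span of 0.4, hybridisation controls), floor (99th percentile, or a pseudocount of 1), filter and probe set choice. The calculations were tested on simulated data.

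Genes named in the text were the 10 highest and lowest member ratios, the 6 highest signals, all paralogs with their parents, members at least 2-fold apart, members whose probe sets span over 1.5 on the log2 scale, short role lists and up to 4 genes of each other list. Genes outside this rule (Eef1a1, Tpt1, Rpl13a, Rpl37a, Rps20, Rps24, Rps16, Rpl27, the marker genes, and Rpl27a for its start site) were chosen after their values were seen, as were the signal bands. The members and lists were chosen with earlier results of these data known. With 1 array per group, precision could not be estimated. Software was Python 3.11.15 with pandas 2.3.3, numpy 2.4.6, statsmodels 0.14.6 and, for figures, matplotlib 3.10.9.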

Additional observations from a re-analysis of the deposited data

How the results depend on the processing

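No paired analysis was possible because each group has 1 array, and for the same reason no replicate could be left out. The members' median log2 ratio (0.22) was 0.53 with equal medians, and turned to -0.060 with quantile, -0.22 with loess and -0.15 with control scaling. The large-subunit median was 0.53, -0.011, -0.13 and -0.15 in that order, and the small-subunit median 0.51, -0.091, -0.26 and -0.17, and 0.065 without x and s probe sets. The paralog median was 0.89, 0.19, 0.22 and 0.22, and 0.36 without a filter on dim genes. Members at least 2-fold higher numbered 2, but 1 with control scaling and 1 with the 99th percentile floor; members at least 2-fold lower numbered 0, but 1 with control scaling and 2 without x and s probe sets. The translation lists' median was 0.31 with equal medians, -0.028 with loess, -0.37 with control scaling and -0.012 without x and s probe sets; their higher genes numbered 10 with equal medians and 3 with control scaling, and their lower genes 1 with quantile, 1 with loess, 7 with control scaling and 2 without x and s probe sets. Among all named genes, 924 were higher and 1357 lower, against 1701 and 887 with equal medians and 505 and 2273 with control scaling; higher genes made up 18.2% of these with control scaling, 50.2% with loess, 57.9% with quantile, 65.7% with equal medians and 40.5% in the deposited values. Control scaling put the median of all named genes, deposited at -0.03, at -0.37, loess at 0.065, quantile at 0.16 and equal medians at 0.24. Of 302 gene results over settings, 127 moved by over 0.1 on the log2 scale, 170 moved less or stayed past 2-fold, 3 came to pass 2-fold and 2 no longer did. Scanner saturation was not examined, although members lie near the top of the signal range.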
